A study of Zea mays with 12 samples.

Results

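The comparison of *smk7a* with WT kernels at 20 DAP (days after pollination) was described across all genes listed in the deposited expression table. It used 6 of the 12 RNA-seq samples of the series, 3 biological replicates of *smk7a* and 3 of WT, chosen by the genotype and time given in their labels. *smk7a* is a recessive small-kernel mutant of maize that was isolated after EMS mutagenesis in the B73 background, and the WT and *smk7a* kernels were taken from the same segregating ears. The line was carried forward through heterozygous plants because homozygotes fail to develop normally, and the sources used here do not say whether the WT kernels were genotyped. The WT group may therefore hold heterozygous kernels, and both groups share the B73 background and the ears. Each sample was RNA from whole kernels, in which embryo, endosperm and the surrounding maternal tissue are mixed. Fewer cells of a type and less RNA per cell cannot be told apart in such a sample. The study's other 6 samples, the same genotypes at 12 DAP, were used only to ask whether the difference at 20 DAP was also found earlier.

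A maize kernel is fed by the mother plant through the basal endosperm transfer layer (BETL), a row of cells at the kernel base whose folded walls take up sugars and amino acids. The endosperm above it stores starch and zein proteins during the filling stage, which is under way at 20 DAP, and the embryo grows beside it. Sugar and amino acid carriers, proton pumps that power them, and the hormones auxin and cytokinin are known to act in this process.

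The table lists 720 genes, a part of the maize genome, with an FPKM value for each sample, which is the number of fragments divided by transcript length and by the mapped fragments of that library. Of these, 185 genes were at 0 in all 6 samples at 20 DAP and 336 passed the filter of more than 1 FPKM in at least 3 of the 6 samples. Only those 336 were tested. The listed genes summed to between 2864 and 3257 FPKM in the WT samples and between 4175 and 4525 FPKM in the *smk7a* samples, so the totals of the groups did not overlap. Replicates resembled each other, with Pearson correlations of log2 values across genes of 0.963 to 0.971 within WT and 0.961 to 0.987 within *smk7a*. *smk7a* replicate 1 lay farther from *smk7a* replicates 2 and 3 (0.961 and 0.964) than these lay from each other (0.987).

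Most of the genes tested had higher FPKM in *smk7a*. The log2 fold change, fitted on log2(FPKM + 0.1) and given as *smk7a* against WT throughout, was above 0 for 301 of the 336 genes (89.6%) and had a median of 0.53. With a threshold of more than a fold change of 2 and a limma adjusted p under 0.05, 53 genes (15.8%) were called, 48 higher (14.3%) and 5 lower (1.49%) in *smk7a*. The same difference of the medians was then taken out by dividing each sample by the median ratio of its genes to their geometric mean over the samples, and these factors were 0.760 to 0.873 in WT and 1.19 to 1.25 in *smk7a*. After this median of ratios scaling, the median log2 fold change was -0.02, 160 genes (47.6%) were above 0, and 28 genes (8.33%) were called, 13 higher (3.87%) and 15 lower (4.46%). At an adjusted p under 0.05 alone, 235 genes (69.9%) differed as deposited, 221 higher (65.8%) and 14 lower (4.17%), and 98 (29.2%) differed after scaling, 48 higher (14.3%) and 50 lower (14.9%). The values of the groups did not overlap for 228 genes higher (67.9%) and 18 lower (5.36%) in *smk7a* as deposited, and for 74 (22.0%) in each direction after scaling. Whether the shift belongs to these 720 genes or to the genome as a whole cannot be told apart with the genes analysed here. The call was therefore read under both scalings, and 18 genes (5.36% of those tested) were called in the same direction in each, 13 higher (3.87%) and 5 lower (1.49%). Scaling lowered the fold changes of the genes by a similar amount, so passing both is not an independent check. The 13 are all the genes called higher after scaling, and the 5 are all those called lower as deposited. Of these, 4 of the 13 had fewer than 3 WT samples above 1 FPKM and 1 of the 5 had fewer than 3 *smk7a* samples above it, so these genes reached the filter with the help of the group in which they are higher. Without *smk7a* replicate 1, 15 genes were called under both scalings, of which 13 were among the 18.

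**Figure D1:**
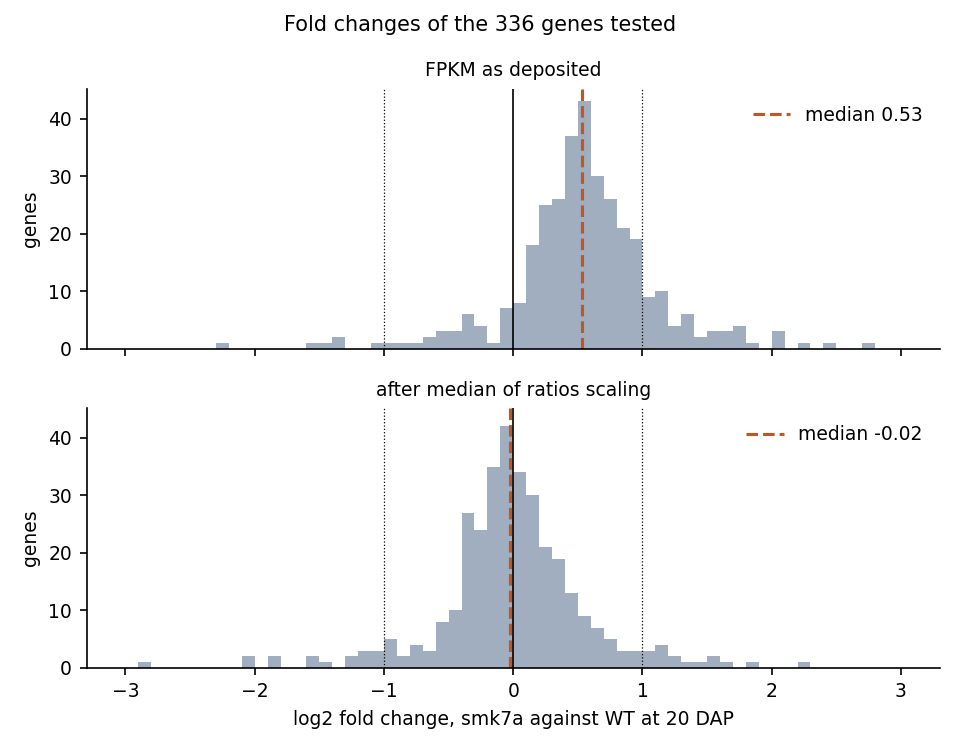
Histograms of the log2 fold change of *smk7a* against WT at 20 DAP for the 336 genes tested, from FPKM as deposited (top) and after median of ratios scaling (bottom); the vertical axes count genes, the dashed line is the median and the dotted lines mark a fold change of 2 in each direction. The median moves from 0.53 to -0.02 with scaling while the shape of the distribution is kept.

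The gene for probable amino acid permease 7 (*Zm00001d001984*), a member of the family of plasma membrane carriers that take up amino acids together with protons, had 6.04, 5.53 and 4.82 FPKM in WT replicates 1 to 3 and 34.0, 28.7 and 26.9 FPKM in the *smk7a* replicates. Every *smk7a* value was far above every WT value, and the means were 5.46 ± 0.61 and 29.9 ± 3.65 FPKM (SD, n = 3 each). Its log2 fold change was 2.43 ± 0.13 (SE; adjusted p = 1.49e-05) as deposited and 1.86 ± 0.14 (adjusted p = 0.000172) after scaling. At 12 DAP the gene was also higher in *smk7a* (log2 fold change 2.28 as deposited and 1.80 after scaling), and the 2 stages did not differ past the threshold (interaction 0.14 ± 0.22, adjusted p = 0.664). The gene described as sugars will eventually be exported transporter1a (*SWEET1a*, *Zm00001d000222*), of a family of carriers that let sugars pass membranes along their gradient, had 6.14, 5.15 and 7.61 FPKM in WT and 22.4, 30.3 and 28.7 FPKM in *smk7a*. The groups again did not overlap, and the log2 fold change was 2.10 ± 0.17 (adjusted p = 0.000104) as deposited and 1.53 ± 0.14 (adjusted p = 0.000509) after scaling.

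The gene for H(+)-ATPase 5 (*Zm00001d002006*), of the pumps that export protons and so energize carriers in the plasma membrane, had 22.5, 14.97 and 20.4 FPKM in WT and 60.9, 59.3 and 55.2 FPKM in *smk7a*. It had the highest mean level over the 6 samples among the 18 genes, and its log2 fold change was 1.61 ± 0.15 (adjusted p = 0.000105) as deposited and 1.05 ± 0.12 (adjusted p = 0.000928) after scaling. The scaled value lay close to the fold change threshold and was 0.93 without WT replicate 2 and 0.99 without *smk7a* replicate 1. These 3 genes were called higher at 12 DAP too as deposited, *SWEET1a* and amino acid permease 7 also after scaling.

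The cytokinin gene *cis-zeatin O-glucosyltransferase1* (*Zm00001d000237*) had the largest rise of the genes tested under both scalings. Its enzyme attaches glucose to cis-zeatin, which puts this cytokinin into a storage form. It had 1.46, 0.562 and 0.456 FPKM in WT and 6.26, 5.99 and 4.50 FPKM in *smk7a*, and it passed the filter only through the *smk7a* samples, since 1 of the WT samples was above 1 FPKM. The log2 fold change was 2.76 ± 0.36 (adjusted p = 0.000445) as deposited and 2.23 ± 0.37 (adjusted p = 0.005003) after scaling. At 12 DAP the order was the other way round, with means of 2.83 ± 0.853 FPKM in WT and 1.44 ± 0.597 FPKM in *smk7a* (SD, n = 3 each) and a log2 fold change of -0.96 (adjusted p = 0.0602), or -1.42 (adjusted p = 0.0177) after scaling. The difference between the stages was 3.72 ± 0.56 (adjusted p = 0.000718).

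The gene for a dehydration responsive element binding protein (*Zm00001d002079*), of a transcription factor family known for drought and cold responses, had 0.836, 1.76 and 1.59 FPKM in WT and 4.16, 6.29 and 3.57 FPKM in *smk7a*. It also passed the filter through the *smk7a* samples, with 2 of the WT samples above 1 FPKM. Its log2 fold change was 1.70 ± 0.30 (adjusted p = 0.00159) as deposited and 1.15 ± 0.33 (adjusted p = 0.0368) after scaling. The scaled call was lost when any 1 of the 6 libraries but WT replicate 2 was left out, with adjusted p between 0.0512 and 0.11.

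A pair of the genes that rose act on nucleic acids. The gene for probable CCR4-associated factor 1 homolog 11 (*Zm00001d001774*), a deadenylase that shortens the poly(A) tails of mRNA, had 2.99, 2.74 and 1.49 FPKM in WT and 9.14, 9.81 and 10.7 FPKM in *smk7a*. The log2 fold change was 2.05 ± 0.24 (adjusted p = 0.000263) as deposited and 1.49 ± 0.25 (adjusted p = 0.00590) after scaling. At 12 DAP its replicates were scattered, from 2.74 to 42.3 FPKM within *smk7a*, and in 1 fit over all 12 samples, which shares this spread, the scaled call at 20 DAP was lost (adjusted p = 0.189). The gene for Endonuclease 2 (*Zm00001d002035*), a nuclease annotated to DNA breakdown, had 3.26, 1.80 and 3.27 FPKM in WT and 8.33, 11.2 and 7.85 FPKM in *smk7a*. Its log2 fold change was 1.71 ± 0.24 (adjusted p = 0.000581) as deposited and 1.16 ± 0.21 (adjusted p = 0.00699) after scaling, and 0.94 without WT replicate 2. Endonuclease 2 was called higher under both scalings at 12 DAP as well.

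A pair of the genes that rose carry domains known from the ubiquitin system. The gene described as Speckle-type POZ protein (*Zm00001d001767*, synonym *BPM1*), whose relatives in Arabidopsis bring substrates to a cullin ubiquitin ligase, had 2.98, 3.22 and 5.04 FPKM in WT and 12.8, 11.1 and 11.4 FPKM in *smk7a*. The log2 fold change was 1.66 ± 0.19 (adjusted p = 0.000263) as deposited and 1.10 ± 0.19 (adjusted p = 0.00649) after scaling, and 0.92 without WT replicate 1. Plant UBX domain-containing protein 7 (*Zm00001d001895*), of a family that binds the segregase CDC48, had 11.4, 10.3 and 11.2 FPKM in WT and 39.3, 30.4 and 30.0 FPKM in *smk7a*. At 12 DAP the means were close, 16.3 ± 0.555 FPKM in WT and 15.8 ± 1.58 FPKM in *smk7a* (SD, n = 3 each), with a log2 fold change of -0.05 as deposited and -0.53 (adjusted p = 0.0225) after scaling. At 20 DAP the log2 fold change was 1.59 ± 0.13 (adjusted p = 0.000104) as deposited and 1.02 ± 0.13 (adjusted p = 0.00162) after scaling, and the difference between the stages was 1.64 ± 0.18 (adjusted p = 0.000127). The scaled value was 0.87 without *smk7a* replicate 1, the highest of the *smk7a* samples.

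The other 4 genes that rose under both scalings have little or no annotation. The gene of an alpha/beta-hydrolase (*Zm00001d000041*), a large enzyme superfamily, had 3.26, 2.37 and 2.95 FPKM in WT and 8.88, 8.99 and 8.28 FPKM in *smk7a*, with a log2 fold change of 1.59 ± 0.14 (adjusted p = 0.000104) as deposited and 1.03 ± 0.10 (adjusted p = 0.000509) after scaling. Its scaled value was 0.96 without WT replicate 2 and 0.99 without *smk7a* replicate 1. The hydrolase gene with the preceding identifier, *Zm00001d000040*, moved alike as deposited (1.13, 1.91 and 3.15 FPKM in WT, 8.39, 6.20 and 5.06 FPKM in *smk7a*; log2 fold change 1.70, adjusted p = 0.00263) but had an adjusted p of 0.0508 after scaling, a call gained without WT replicate 3 (adjusted p = 0.0247) and in 1 fit over all 12 samples (adjusted p = 0.0169). Reads that fit near-identical copies could be split between such neighbours, and how the authors treated them is not given in the sources used here. *Zm00001d001766*, with no description, had 4.42, 3.04 and 3.499 FPKM in WT and 13.1, 13.7 and 11.2 FPKM in *smk7a* (log2 fold change 1.78 as deposited and 1.22 after scaling). *Zm00001d001826*, also without a description, had 0.494, 0.561 and 0.389 FPKM in WT and 2.41, 1.98 and 3.496 FPKM in *smk7a* (2.20 as deposited and 1.69 after scaling). *Zm00001d002019*, which is described only as a protein, had 0.468, 0.192 and 0.330 FPKM in WT and 1.56, 1.16 and 1.503 FPKM in *smk7a* (1.85 as deposited and 1.37 after scaling). These last 2 genes passed the filter only through the *smk7a* samples, all 3 of which exceeded 1 FPKM. The scaled call of *Zm00001d002019* was lost without WT replicate 2 or without any 1 of the *smk7a* replicates (adjusted p between 0.0613 and 0.0957).

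**Figure D2:**
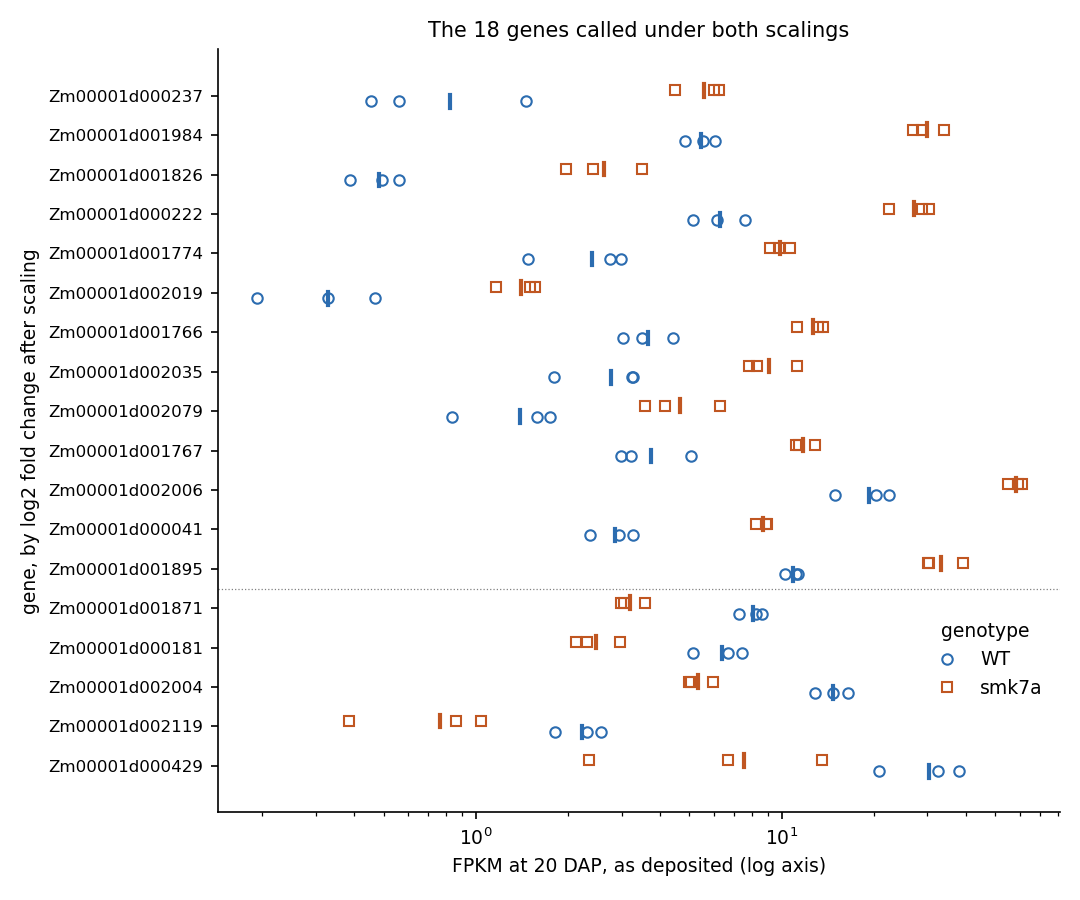
FPKM as deposited at 20 DAP (horizontal log axis) of the 18 genes called in the same direction under both scalings, with WT samples as blue circles and *smk7a* samples as orange squares, 3 each, and vertical bars for the group means; the dotted line divides the 13 genes that rose from the 5 that fell. The circles and squares of each gene do not overlap.

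Of the 5 genes that fell under both scalings, 2 have a description. Peroxidase 16 (*Zm00001d002004*), of the secreted class of plant peroxidases that use hydrogen peroxide to oxidize phenolic compounds, had 16.5, 12.8 and 14.8 FPKM in WT and 4.999, 5.06 and 5.98 FPKM in *smk7a*. The samples within each group lay close together, and the log2 fold change was -1.44 ± 0.13 (adjusted p = 0.000104) as deposited and -2.00 ± 0.10 (adjusted p = 2.47e-05) after scaling. At 12 DAP the gene was at a similar level in both genotypes (4.40 ± 0.689 FPKM in WT and 4.98 ± 0.733 FPKM in *smk7a*, SD, n = 3 each), and the stages differed by -1.62 ± 0.22 (adjusted p = 0.000385). The gene for ABC transporter B family member 19 (*Zm00001d002119*), whose Arabidopsis namesake exports auxin from cells, had 2.31, 1.81 and 2.56 FPKM in WT and 0.386, 1.05 and 0.866 FPKM in *smk7a*. It passed the filter through the WT samples, with 1 *smk7a* sample above 1 FPKM. Its log2 fold change was -1.504 ± 0.34 (adjusted p = 0.00493) as deposited and -2.02 ± 0.31 (adjusted p = 0.00360) after scaling. This gene did not pass the filter at 12 DAP, where its values were 0.935, 1.16 and 1.52 FPKM in WT and 0.288, 0.431 and 0.322 FPKM in *smk7a* and the groups did not overlap.

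The 3 other genes that fell carry neither a description nor a GO term. *Zm00001d000429* had 32.4, 20.8 and 37.9 FPKM in WT and 2.35, 13.5 and 6.69 FPKM in *smk7a*, with a log2 fold change of -2.28 ± 0.54 (adjusted p = 0.00631) as deposited and -2.84 ± 0.54 (adjusted p = 0.00773) after scaling. It had the largest fall and also the largest spread among *smk7a* samples, and in 1 fit over all 12 samples both calls were lost (adjusted p = 0.127 as deposited and 0.13 after scaling). *Zm00001d000181* had 7.42, 6.67 and 5.14 FPKM in WT and 2.14, 2.97 and 2.32 FPKM in *smk7a* (log2 fold change -1.34 as deposited and -1.89 after scaling). It was lower at 12 DAP too, and more so, with log2 fold changes of -2.42 as deposited and -2.89 after scaling and an interaction of 1.08 ± 0.30 (adjusted p = 0.0226). *Zm00001d001871* had 8.26, 7.27 and 8.62 FPKM in WT and 2.98, 3.05 and 3.59 FPKM in *smk7a* (log2 fold change -1.30 as deposited and -1.86 after scaling), while at 12 DAP its groups overlapped.

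The remaining calls depended on the scaling. There were 35 genes called higher only as deposited, with log2 fold changes of 0.44 to 1.58 after scaling. That all of them stayed above 0 follows from the size of the shift, which is smaller than the fold change threshold. An adjusted p under 0.05 was kept after scaling by 22 of the 35. Of all 48 genes called higher as deposited, 12 had fewer than 3 WT samples above the filter of 1 FPKM, among them IBH1, *Zm00001d000242* and *Zm00001d001839*. The gene with the synonym *HIPP39* (*Zm00001d001915*), annotated to metal ion transport, rose from 5.46 ± 0.711 to 15.99 ± 1.43 FPKM (SD, n = 3 each), and its scaled log2 fold change of 0.97 (adjusted p = 0.000509) lay just inside a fold change of 2. The scaled value was past it without WT replicate 1 (1.03) or *smk7a* replicate 1 (1.02). Transcription factor IBH1 (*Zm00001d001982*), a helix-loop-helix protein known in rice and Arabidopsis as a brake on cell elongation, had 1.99, 0.504 and 0.266 FPKM in WT and 1.88, 2.32 and 2.06 FPKM in *smk7a*. The groups of IBH1 overlapped through WT replicate 1, and its call (log2 fold change 1.497, adjusted p = 0.0395) was lost when any 1 library but that one was left out. Without WT replicate 1 it was called after scaling too (1.68, adjusted p = 0.0126). *Zm00001d000242*, listed at 0 in WT replicate 3, and *Zm00001d001839* had log2 fold changes of 2.02 and 1.75 as deposited and adjusted p of 0.180 and 0.192 after scaling. The call of the first was lost without any 1 of the *smk7a* replicates (adjusted p between 0.0521 and 0.0695) and that of the second without *smk7a* replicate 1 (adjusted p = 0.0631).

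The 10 genes called lower only after scaling were below 0 as deposited too, which again follows from the size of the shift. As deposited, 6 of them had an adjusted p under 0.05. Of all 15 genes called lower after scaling, 3 had fewer than 3 *smk7a* samples above 1 FPKM, among them the AIL5 gene. A eukaryotic aspartyl protease gene (*Zm00001d001771*) had 12.5, 10.6 and 13.1 FPKM in WT and 5.24, 6.82 and 6.37 FPKM in *smk7a*, with a log2 fold change of -0.96 (adjusted p = 0.000585) as deposited and -1.53 (adjusted p = 9.99e-05) after scaling. It was called as deposited too without WT replicate 2 (-1.06) or *smk7a* replicate 2 (-1.04). A bromodomain transcription factor (*Zm00001d000165*) had 2.46, 2.67 and 2.71 FPKM in WT and 1.79, 1.70 and 1.36 FPKM in *smk7a* (-0.67 and -1.21). *Zm00001d002132*, with no description, had -0.84 and -1.40. Its scaled call was lost in 1 fit over all 12 samples (adjusted p = 0.0574), and as deposited it was called without WT replicate 1 (-1.005) or *smk7a* replicate 2 (-1.08). A putative helix-loop-helix protein gene (*Zm00001d000400*) had -0.75 and -1.30. The gene of the AP2-like factor AIL5 (*Zm00001d002025*), of a family known for meristem and embryo growth, had 2.11, 1.52 and 2.22 FPKM in WT and 1.67, 1.16 and 0.845 FPKM in *smk7a*. Its values overlapped as deposited (-0.66, adjusted p = 0.0544) and were lower after scaling (-1.19, adjusted p = 0.0154), a call lost without *smk7a* replicate 2 (adjusted p = 0.0502) or *smk7a* replicate 3 (log2 fold change -0.96).

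The genes were next grouped by keyword from their deposited descriptions and GO terms, and each group is given by counts and medians beside those of all genes tested, whose medians were 0.53 as deposited and -0.02 after scaling. Over all genes, 14.3% were called higher and 1.49% lower as deposited, and 3.87% higher and 4.46% lower after scaling. Among 16 transport genes tested, 4 were called higher and 1 lower as deposited, and 2 higher and 1 lower after scaling, with medians of 0.55 and -0.01. The members that rose under both were amino acid permease 7 and *SWEET1a*, and the one that fell was ABC transporter B family member 19. Of 5 starch and sugar genes tested, *SWEET1a* was called. After scaling 2 of the 5 had an adjusted p under 0.05 in each direction, beside 14.3% of all genes higher and 14.9% lower at that threshold. Of the 11 auxin genes tested, 4 were above 0 after scaling, 2 were called lower (ABC transporter B family member 19 and AIL5) and 0 higher, and the median was -0.43. As deposited, the auxin median was 0.12, with 1 gene called in each direction. Of 3 cytokinin genes tested, *cis-zeatin O-glucosyltransferase1* rose under both scalings.

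The jasmonate, wounding and defense list had 19 genes tested, of which 4 were called higher as deposited and 1 after scaling, CCR4-associated factor 1 homolog 11, beside 14.3% and 3.87% of all genes. At an adjusted p under 0.05 alone after scaling, 4 were higher and 3 lower, beside 14.3% and 14.9% of all genes, and the 3 lower ones were the genes for glycerol kinase (*Zm00001d002085*, -0.595), UBP1-associated protein 2A (*Zm00001d002141*, -0.46) and an expressed protein (*Zm00001d000143*, -0.86). *lipoxygenase6* (*Zm00001d002000*) had 4.65, 3.34 and 3.79 FPKM in WT and 9.90, 10.3 and 10.5 FPKM in *smk7a*, with a log2 fold change of 1.37 (adjusted p = 0.000134) as deposited and 0.81 (adjusted p = 0.00138) after scaling. *polyphenol oxidase1* (*Zm00001d000001*), an enzyme of tissue browning, had 4.85, 4.07 and 4.62 FPKM in WT and 9.03, 8.84 and 9.46 FPKM in *smk7a* (1.001 and 0.44, adjusted p = 0.000241 and 0.00675), a call as deposited that was lost without WT replicate 2 (0.93) or *smk7a* replicate 3 (0.97). Both genes had higher levels at 12 DAP in *smk7a*, 53.1 ± 2.44 FPKM for *lipoxygenase6* and 87.7 ± 24.0 FPKM for *polyphenol oxidase1* (SD, n = 3), and their genotype differences were smaller at 20 DAP by 0.70 ± 0.18 (adjusted p = 0.01995) and 2.84 ± 0.38 (adjusted p = 0.000323) on the log2 scale.

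Of the 13 peroxidase and redox genes tested, 3 were called higher and Peroxidase 16 lower as deposited, beside 14.3% and 1.49% of all genes, and 0 higher and Peroxidase 16 lower after scaling, beside 3.87% and 4.46%. After scaling 4 had an adjusted p under 0.05 in each direction, beside 14.3% of all genes higher and 14.9% lower at that threshold. The neighbouring alternative oxidase genes differed in this: *Zm00001d001908* had 1.45, 1.62 and 2.15 FPKM in WT and 4.77, 3.69 and 3.83 FPKM in *smk7a* (1.20 as deposited, 0.65 after scaling), and *Zm00001d001909* had a log2 fold change of 0.08 as deposited and -0.48 after scaling. Among 20 transcription factor genes tested, 6 were called higher as deposited and 1 after scaling, and 0 and 3 were called lower, beside 14.3% and 3.87% of all genes higher and 1.49% and 4.46% lower. *MYB104* (*Zm00001d000361*) had 2.79, 2.52 and 2.92 FPKM in WT and 7.86, 7.02 and 6.64 FPKM in *smk7a* (1.35 as deposited and 0.80 after scaling, adjusted p = 0.000104 and 0.00182), and log2 fold changes of -0.06 as deposited and -0.53 after scaling at 12 DAP (interaction 1.41 ± 0.20, adjusted p = 0.000409).

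The 30 ubiquitin and proteolysis genes tested had 6 called higher and 0 lower as deposited, and 1 called in each direction after scaling, beside 14.3% of all genes higher as deposited and 3.87% higher and 4.46% lower after scaling. Of these, the protease gene *maize insect resistance3* (*Zm00001d002065*) rose as deposited, from 18.0 ± 4.31 to 45.1 ± 5.61 FPKM (SD, n = 3 each; log2 fold change 1.34, adjusted p = 0.000540), and had 0.78 (adjusted p = 0.00773) after scaling. Lists of general cell functions kept near the median of all genes. Vesicle traffic had 33 genes tested, all above 0 as deposited, with medians of 0.57 and 0.02 and scaled values between -0.36 and 1.03. Ribosome and translation (14 genes, all above 0 as deposited) had medians of 0.59 and 0.02, RNA processing (19 genes) 0.57 and 0.01, and chromatin and cell cycle (22 genes) 0.48 and -0.07. The 45 chloroplast genes tested had medians of 0.46 and -0.10. At an adjusted p under 0.05 after scaling, 7 were lower and 3 higher, beside 14.9% and 14.3% of all genes. Of the 21 protein kinase and phosphatase genes tested, 0 were called as deposited and 1 was called lower after scaling, the gene for D6PKL1 (*Zm00001d000038*, -0.48 and -1.02), whose value was under a fold change of 2 when any 1 of 4 of the 6 libraries was left out.

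**Figure D3:**
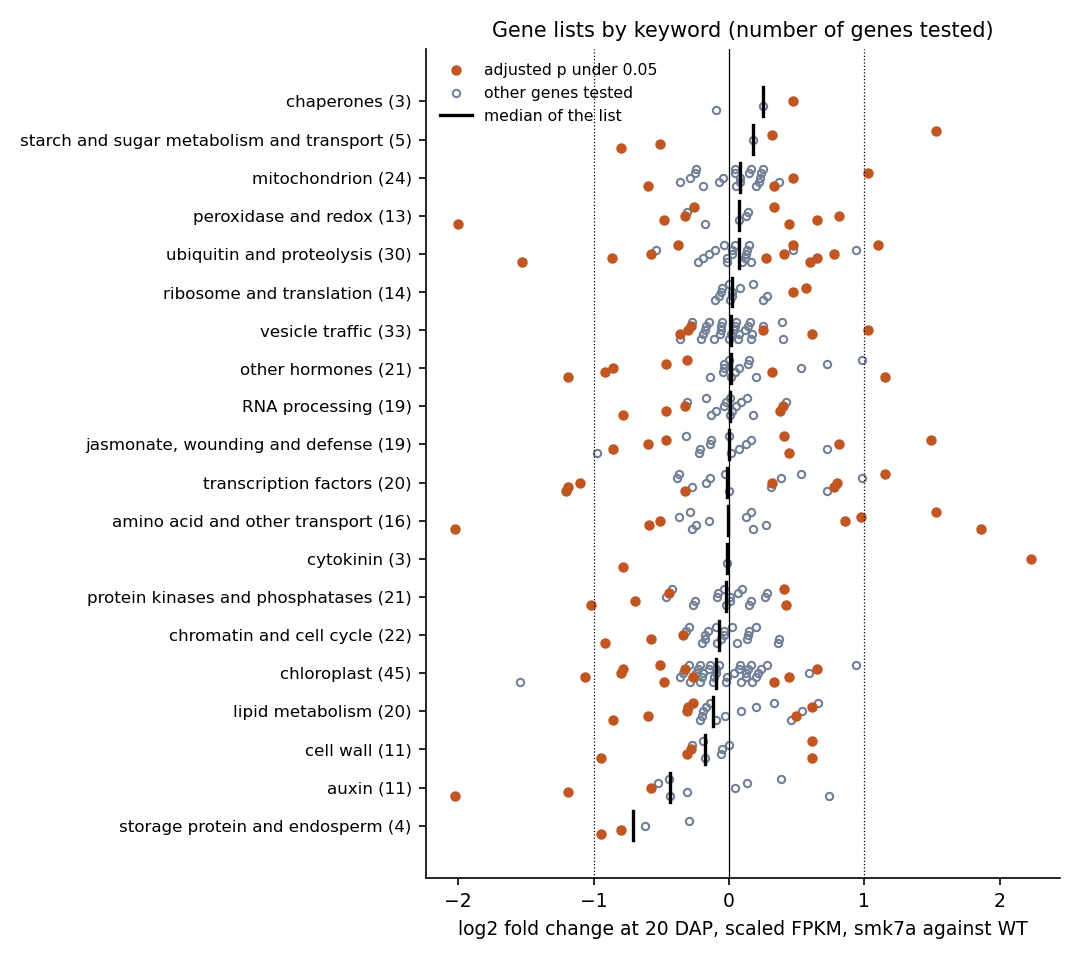
Log2 fold change at 20 DAP after median of ratios scaling (horizontal axis) of the tested members of 20 keyword lists, with the number tested in parentheses; filled orange points had an adjusted p under 0.05, open points did not, and black bars are list medians. Medians run from -0.71 for the storage protein and endosperm list, in which no zein was tested, to 0.25 for chaperones. The dotted lines mark a fold change of 2 in each direction.

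The labelled tissue was checked against markers of kernel cell types. Of 7 names looked up for the BETL, *BETL4* was listed, of 10 for the starchy endosperm *dull endosperm1* and *endosperm specific protein1* were listed, and names for the embryo surrounding region and the aleurone were not among the genes analysed here. The embryo names matched 7 listed genes, all through the words late embryogenesis abundant, and some of these are described as a hydroxyproline-rich glycoprotein family. Of the 7, 6 were at 0 in all 6 samples and 1 was at 10.03 to 12.7 FPKM in WT and 11.2 to 15.4 FPKM in *smk7a*. Whether these genes mark the embryo was not tested. The endosperm markers were thus present at high levels in both genotypes. *endosperm specific protein1* (*Zm00001d000418*) had 171, 162 and 158 FPKM in WT and 102, 141 and 139 FPKM in *smk7a*, below WT without overlap, with a log2 fold change of -0.38 ± 0.13 (adjusted p = 0.0318) as deposited and -0.94 ± 0.13 (adjusted p = 0.00182) after scaling, where it was past a fold change of 2 without WT replicate 3 (-1.005) or *smk7a* replicate 2 (-1.001).

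*BETL4* (*Zm00001d000161*), a small secreted protein of the transfer layer, had 124, 88.0 and 132 FPKM in WT and 54.7, 151 and 156 FPKM in *smk7a*. The *smk7a* samples lay on both sides of WT, and the log2 fold change was -0.05 ± 0.38 (adjusted p = 0.901) as deposited and -0.62 ± 0.37 (adjusted p = 0.252) after scaling. Leaving out *smk7a* replicate 1 turned the deposited value to 0.44 with an adjusted p of 0.0372, and the scaled value was -0.15. At 12 DAP *BETL4* was at 260 ± 9.42 FPKM in WT and 79.8 ± 11.4 FPKM in *smk7a* (SD, n = 3 each), a log2 fold change of -1.72, and the stages differed by 1.66 ± 0.45 (adjusted p = 0.0226). This last call was lost without WT replicate 2, *smk7a* replicate 2 or *smk7a* replicate 3 at 20 DAP (adjusted p between 0.0541 and 0.0554). *smk7a* replicate 1 was the lowest of the *smk7a* samples in *BETL4*, *endosperm specific protein1* and *dull endosperm1*.

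*dull endosperm1* (*Zm00001d000002*), a starch synthase, had 36.3, 31.7 and 28.7 FPKM in WT and 26.8, 28.1 and 27.2 FPKM in *smk7a*. The groups did not overlap, and the log2 fold change was -0.23 ± 0.11 (adjusted p = 0.0845) as deposited and -0.80 ± 0.10 (adjusted p = 0.00162) after scaling. At 12 DAP the same gene was at 52.2 ± 7.13 FPKM in WT and 14.8 ± 4.99 FPKM in *smk7a* (SD, n = 3 each), and the interaction was 1.64 ± 0.31 (adjusted p = 0.00336). *glucose 6-phosphate/phosphate translocator1* (*Zm00001d000021*), which brings hexose phosphate into the starch-forming plastid, had 87.1, 89.2 and 88.4 FPKM in WT and 83.1, 97.2 and 96.8 FPKM in *smk7a*. Its values overlapped as deposited (0.06, adjusted p = 0.539) and were lower after scaling (-0.51 ± 0.09, adjusted p = 0.00737). The storage protein and endosperm list had 4 genes tested: *BETL4*, *endosperm specific protein1*, *dull endosperm1* and a late embryogenesis abundant protein. It held no tested zein, so it says nothing on storage proteins. Of these 4 genes, 0 were called, beside 15.8% of all genes as deposited and 8.33% after scaling. Above 0 were 1 as deposited and 0 after scaling, beside 89.6% and 47.6% of all genes, and the medians were -0.14 and -0.71. A cell wall invertase gene, *invertase cell wall4* (*Zm00001d001941*), had at most 0.545 FPKM in the 6 samples and was not tested.

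**Figure D4:**
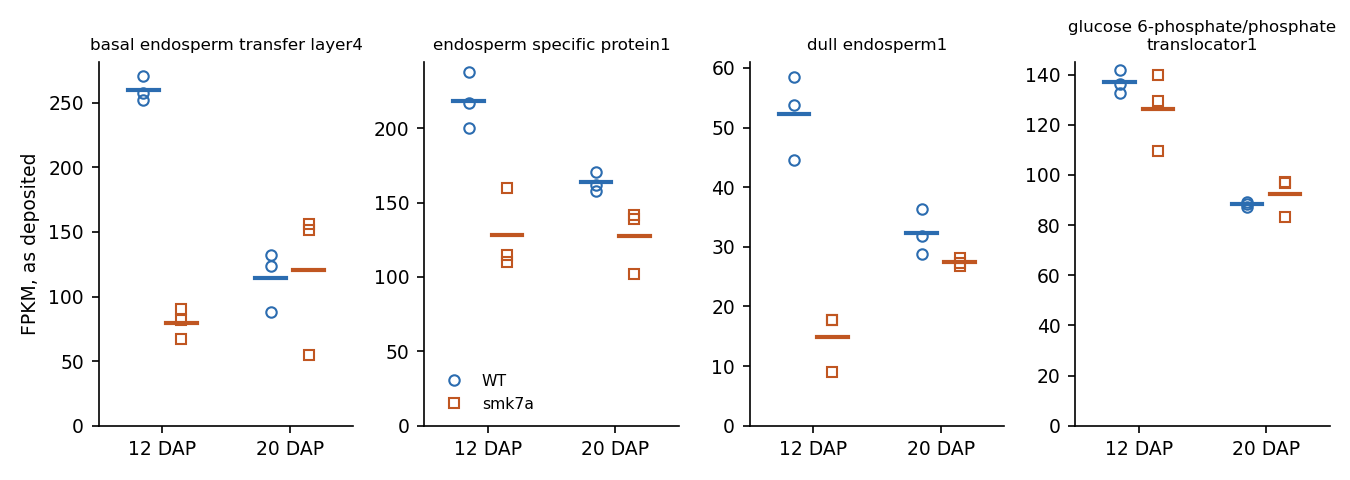
FPKM as deposited of 4 endosperm genes in every sample at 12 and 20 DAP, with WT as blue circles, *smk7a* as orange squares, 3 samples each, and bars for the group means; vertical axes start at 0. At 20 DAP *BETL4* spans 54.7 to 156 FPKM in *smk7a* and overlaps WT, while *endosperm specific protein1* stays below WT in all 3 *smk7a* samples.

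Per the paper, 3 genes of the mapped interval of the mutation exceeded 1 FPKM in at least 1 sample. All 3 are listed, and none was called at 20 DAP. The Dof zinc finger gene *DOF1.6* (*Zm00001d001824*) had 46.1, 35.2 and 59.9 FPKM in WT and 57.6, 55.2 and 44.7 FPKM in *smk7a*, with overlapping groups and log2 fold changes of 0.18 ± 0.19 (adjusted p = 0.397) as deposited and -0.39 ± 0.17 (adjusted p = 0.151) after scaling. The transducin/WD40 repeat gene (*Zm00001d001825*) had 3.23, 2.77 and 2.53 FPKM in WT and 3.83, 4.32 and 4.64 FPKM in *smk7a*. This was 0.57 ± 0.14 (adjusted p = 0.00736) as deposited, near the median of all genes, and 0.02 ± 0.12 (adjusted p = 0.932) after scaling. The N-acetylglucosaminylphosphatidylinositol de-N-acetylase gene (*Zm00001d001819*), of the GPI anchor pathway, had 1.95, 1.39 and 1.08 FPKM in WT and 1.31, 1.66 and 2.05 FPKM in *smk7a*, again with overlap (0.19 and -0.35). With *BETL4*, *endosperm specific protein1* and the translocator, the 5 most abundant genes at 20 DAP were completed by ubiquitin-conjugating enzyme E2 11 (*Zm00001d001913*) and eukaryotic translation initiation factor 5 (*Zm00001d000300*). The first had 233, 207 and 228 FPKM in WT and 342, 323 and 340 FPKM in *smk7a* (0.59 as deposited and 0.02 after scaling), and the second followed the median in the same way (0.52 and -0.05).

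The difference at 20 DAP was finally set beside that at 12 DAP, which used other samples. At 12 DAP, 83 of 365 genes tested (22.7%) were called as deposited and 58 (15.9%) after scaling. Of the 18 genes called under both scalings at 20 DAP, 17 were tested at 12 DAP, and 8 of these were called there in the same direction as deposited and 4 under both scalings. These 4 were amino acid permease 7, *SWEET1a*, Endonuclease 2 and *Zm00001d000181*. The listed genes summed to more in *smk7a* at 12 DAP as well, 5800 to 5853 FPKM beside 4261 to 4828 FPKM in WT. Over all genes, 23 were called at both stages as deposited, all in the same direction, and 9 after scaling, of which 7 had the same direction. With totals higher in *smk7a* at both stages, the agreement in direction as deposited is partly built in. The interaction of genotype and stage, which asks whether the log2 fold change at 20 DAP differs from that at 12 DAP, was past an adjusted p of 0.05 for 79 of 375 genes (21.1%), 49 larger (13.1%) and 30 smaller (8.0%) at 20 DAP. After scaling it was past it for 90, of which 76 were shared with the 79.

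Some genes went in opposite directions at the stages. An adjusted p under 0.05 was asked at each stage, as deposited or after scaling, and in both cases for the interaction as deposited. By this rule 12 genes changed sign as deposited and 11 after scaling, and 3 did under both. These 3 were the aspartyl protease gene, a pyruvate kinase gene and the gene for the signal recognition particle 19 kDa protein. The aspartyl protease gene (*Zm00001d001771*) was at 10.4 ± 4.52 FPKM in WT and 58.6 ± 11.9 FPKM in *smk7a* at 12 DAP (SD, n = 3 each; log2 fold change 2.58), against its fall at 20 DAP, and the interaction was -3.54 ± 0.42 (adjusted p = 0.000171). The pyruvate kinase gene (*Zm00001d001831*), for the last step of glycolysis, was at 7.10 ± 0.274 FPKM in WT and 18.9 ± 2.04 FPKM in *smk7a* at 12 DAP. At 20 DAP it had 7.80, 7.31 and 10.03 FPKM in WT and 4.74, 6.44 and 5.87 FPKM in *smk7a* (-0.55 as deposited and -1.11 after scaling, adjusted p = 0.0159 and 0.00148), and the interaction was -1.95 ± 0.22 (adjusted p = 0.000127). The gene for the signal recognition particle 19 kDa protein (*Zm00001d001882*), which helps to send proteins to the endoplasmic reticulum, had log2 fold changes of -0.58 at 12 DAP and 0.89 at 20 DAP as deposited, and -1.06 and 0.34 after scaling.

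Other genes that were lower in *smk7a* at 12 DAP were closer to WT at 20 DAP, the last of them above WT as deposited. The gene for the calcium-binding protein CML21 (*Zm00001d000256*) was at 20.9 ± 2.53 FPKM in WT and 2.91 ± 0.808 FPKM in *smk7a* at 12 DAP (SD, n = 3 each), and had 9.92, 9.63 and 8.68 FPKM in WT and 7.68, 6.997 and 7.41 FPKM in *smk7a* at 20 DAP. Its log2 fold change at 20 DAP was -0.35 (adjusted p = 0.0171) as deposited and -0.91 (adjusted p = 0.00122) after scaling, or -1.003 without WT replicate 3, and the interaction of 2.48 ± 0.24 had the smallest adjusted p of all genes (9.02e-05). *Zm00001d002132* moved in the same way, from a log2 fold change of -4.44 at 12 DAP to -0.84 at 20 DAP. An NAD(P)-binding Rossmann-fold gene (*Zm00001d000123*) had -0.93 at 12 DAP and 0.41 at 20 DAP as deposited (interaction 1.34 ± 0.17, adjusted p = 0.000267), and -0.15 (adjusted p = 0.312) at 20 DAP after scaling.

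**Figure D5:**
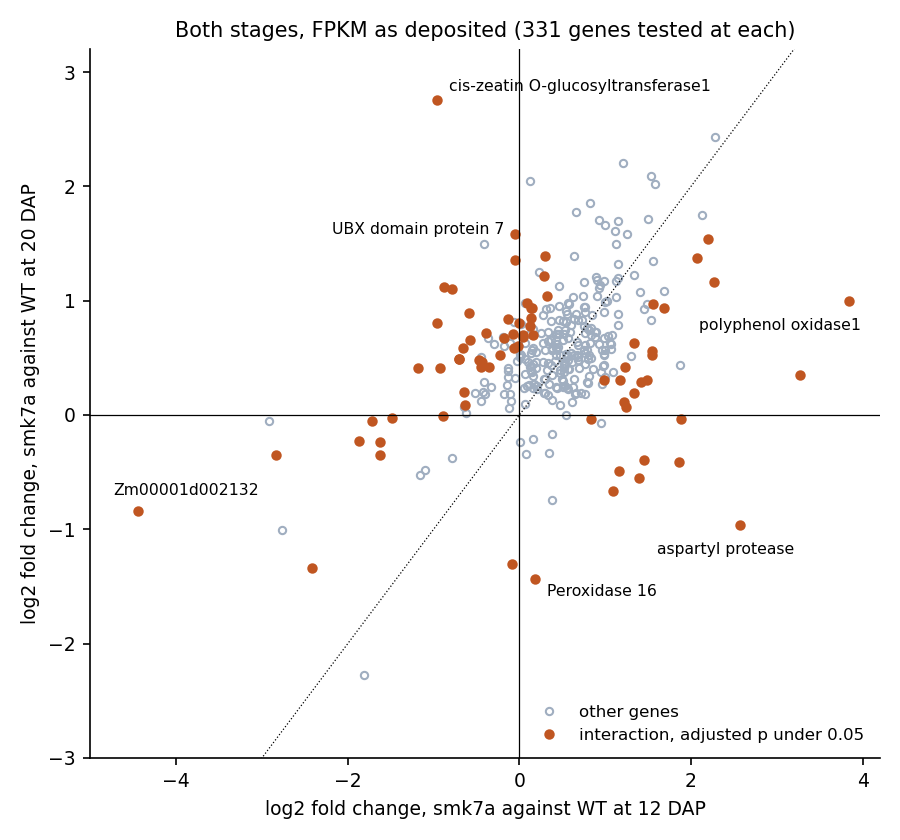
Log2 fold change of *smk7a* against WT at 20 DAP (vertical axis) against that at 12 DAP (horizontal axis), from FPKM as deposited, for the 331 genes tested at each stage; filled orange points had an interaction adjusted p under 0.05 (75 genes here) and the dotted line marks equal values. *cis-zeatin O-glucosyltransferase1* lies above 0 at 20 DAP and below 0 at 12 DAP, and the aspartyl protease gene the other way round.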

How the data were processed

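The authors isolated RNA from kernels, made stranded mRNA libraries, removed poor reads and adaptors with Trimmomatic and mapped the rest to the B73 RefGen_V4 genome with HISAT2. Versions are not given in the sources used here. They deposited FPKM per gene and sample, with descriptions, GO terms and pathways, and 0 value columns were left unused. The program that made the FPKM, and whether strand was used, are not given in the sources used here. Counts were not analysed here, so the count test of the study was replaced by limma 3.58.1 in R 4.3.3 (linear model, empirical Bayes with variance trend) on log2 of the deposited FPKM plus a pseudocount of 0.1 FPKM. Genes above 1 FPKM in at least 3 of the 6 samples were tested, with Benjamini-Hochberg adjustment over them and calls at an adjusted p under 0.05 and a fold change above 2. A second fit first divided each sample by its median of ratios. The stage interaction was fitted over all 12 samples for genes above 1 FPKM in at least 3. The study gives read totals per library, which were not used here, and FPKM could not be turned back into reads without transcript lengths. At best 22.2% of the ratios of low values between 2 libraries (27 genes) fell on steps of 1 or 2 reads. The median was 3.7% over all relative depths tried for these libraries. Groups came from the sample labels, and replicates are biological per the paper, though which ears entered which replicate is not given.

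Named genes were all genes called under both scalings, the 5 largest called under 1 scaling only in each direction, listed genes that the paper names, the 5 most abundant genes, the 5 smallest interaction adjusted p, and up to 3 members per list with an adjusted p under 0.05 under both scalings, of which some are counted and not described. *Zm00001d001882* and *Zm00001d001909* were added after their values were seen. *Zm00001d002085*, *Zm00001d002141* and *Zm00001d000143* are also outside these rules and were given by their values, as the lower members of their list. The comparison and the gene lists were chosen with earlier results of these data known, and the keywords of some lists were corrected after the descriptions were read. With 3 against 3 samples an exact permutation test of 1 gene cannot go below p = 0.1, so none is given. Alternatives covered the pseudocount, the filter, the scaling, the variance trend, sample weights, the thresholds, the fit over all samples, the replicate block and each replicate left out. The fits were also run on simulated data, drawn from the means and spread of these samples with planted changes larger than the fold change threshold. Such a run cannot speak to calls near that threshold, and nothing is concluded from it here. RefSeq gene records matched 0 of the gene identifiers, so no coordinates are given.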

Additional observations from a re-analysis of the deposited data

Results flagged for a closer look

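The genotype difference changed with stage in 23 of the named genes by the interaction test (adjusted p under 0.05), where each value is the log2 fold change at 20 DAP minus that at 12 DAP. Values above 0 were found for *cis-zeatin O-glucosyltransferase1* (3.72), *Zm00001d002132* (3.60), CML21 (2.48), *BETL4* (1.66), Plant UBX domain-containing protein 7 (1.64), *dull endosperm1* (1.64), *MYB104* (1.41), *Zm00001d000123* (1.34), the tetratricopeptide repeat gene *Zm00001d002089* (1.27), *Zm00001d000181* (1.08), the protein kinase gene *Zm00001d000396* (0.89), a mediator subunit 7a gene *Zm00001d001967* (0.78) and ubiquitin-conjugating enzyme E2 11 (0.65). Values below 0 were found for the aspartyl protease gene (-3.54), *polyphenol oxidase1* (-2.84), pyruvate kinase (-1.94), the bromodomain factor *Zm00001d000165* (-1.76), Peroxidase 16 (-1.62), *Zm00001d001871* (-1.22), the xyloglucan endotransglucosylase gene *Zm00001d002193* (-1.10), *lipoxygenase6* (-0.70), the *HIPP39* gene (-0.67) and the kinase gene *MHK* (*Zm00001d000169*, -0.58). The interaction of *HIPP39* was lost without any 1 of 10 of the 12 libraries, that of *MHK* without any 1 of 8, and that of *Zm00001d001967* without any 1 of 5 (adjusted p of 0.0531 to 0.104 for the 3 genes). That of *Zm00001d000181* was lost without WT replicate 2 at 12 DAP, WT replicate 3 at 20 DAP or *smk7a* replicate 2 at 20 DAP (adjusted p between 0.0505 and 0.0568). No cause was tested.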

How the results depend on the processing

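As deposited, the 53 calls became 33 with a pseudocount of 1 FPKM, 30 with a filter above 5 FPKM, 235 with no fold change threshold (221 higher and 14 lower), 28 with upper quartile scaling (15 higher and 13 lower) and 24 with quantile normalization (11 higher and 13 lower). After median of ratios scaling, the 28 calls became 14 with a pseudocount of 1 FPKM, 16 above 5 FPKM, 98 with no fold change threshold and 10 in a test against a fold change of 1.5. The 18 calls under both scalings became 10 with a pseudocount of 1 FPKM, 62 with no fold change threshold and 8 in the test against 1.5, and 26 with no filter, 17 of them among the 18. Leaving out 1 replicate gave 45 to 64 calls as deposited, 22 to 31 after scaling, 15 to 21 under both and 56 to 97 for the interaction. Correlations of deviations were -0.02, -0.28 and 0.08 between WT and *smk7a* replicates of the same number, and -0.2 to 0.25 between those of different numbers. With 3 replicates a side this check cannot exclude a pairing of the samples. With the replicate block the counts were 53, 28 and 18 calls and 76 interactions.

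Signs turned in these values of named genes that were not called. As deposited, *BETL4* was 0.14 with sample weights and -0.31 to 0.44 with 1 replicate left out. With upper quartile scaling *Zm00001d001819* was -0.29, *DOF1.6* -0.33, the translocator -0.45 and *Zm00001d000123* -0.10. With quantile normalization they were -0.34, -0.27, -0.32 and -0.18, *Zm00001d001825* was -0.02 and ubiquitin-conjugating enzyme E2 11 was 0.00. With 1 replicate left out, *Zm00001d001819* was -0.001 to 0.398 and *DOF1.6* -0.009 to 0.373. After median of ratios scaling, E2 11 was -0.001 above 5 FPKM, -0.006 with sample weights and -0.021 to 0.072 with 1 replicate left out, where *Zm00001d001825* was -0.094 to 0.070 and initiation factor 5 was -0.108 to 0.003. Of the values of named genes under all alternatives, 75 of 1137 lost and 42 gained a call as deposited, 53 of 1076 lost and 36 gained one after scaling, and 30 of 391 interactions lost and 0 gained one. The cause was not tested. FPKM could not be turned back into reads here, so no counting error is given for low FPKM.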

Other observations

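Among the 384 genes that were not tested, 199 were above 0 in at least 1 of the 6 samples at 20 DAP. *Zm00001d000012* was listed at 0 in all 3 WT samples and at 0.186, 0.193 and 0.299 FPKM in *smk7a*. *Zm00001d002057* was listed at 0 in all *smk7a* samples at 20 DAP and at 12 DAP, and at 0.212, 0.103 and 0.105 FPKM in WT at 20 DAP. These values lie far below the filter of 1 FPKM, and both genes were singled out after their values were seen.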
